A study of Homo sapiens with 6 samples.

Results

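The 48 genes described here encode nucleolar factors of ribosome biogenesis, namely subunits of RNA polymerase I, protein components of small nucleolar ribonucleoproteins (snoRNPs), scaffold proteins of the nucleolus and processing or assembly factors of the small and large ribosomal subunits. They were chosen by name from a list of symbols, all 48 of which matched an Ensembl gene ID among the 62703 in the deposited tables, and all 48 passed the filter on low counts that left 16082 genes for testing. The cells were H929, a human cell line established from a multiple myeloma (a plasma cell cancer), with the genotype label WT. The groups were 3 libraries from cells kept for 24 h with 1 µM Mi-2, an inhibitor of the protease MALT1, and 3 libraries from cells kept for 24 h with the solvent DMSO. Both groups were grown in the same serum-containing medium, and the data cover this 1 cell line. The titles of all 6 libraries end in 'bio rep 1'. The labels do not say whether each library had a culture of its own. A p-value here therefore covers the spread among these 6 libraries alone, which may be technical.

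Ribosome assembly starts in the nucleolus, where RNA polymerase I transcribes the long precursor of most of the ribosomal RNA. snoRNPs guide the chemical modification and part of the cleavage of that precursor, and a sequence of large assemblies then folds and trims it into the small and the large subunit. Many of these genes are known targets of the transcription factor MYC, and myeloma plasma cells, which secrete large amounts of antibody, make heavy use of ribosomes.

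Total estimated counts ran from 21938893 to 23756745 in the Mi-2 libraries and from 19980689 to 22651557 in the DMSO libraries. All 10 plasma cell markers fixed for the check of the cell label had a mean of at least 1 TPM (the deposited level, corrected for gene length and library size), and none of the 4 B-cell markers that plasma cells lack reached it. The 7 markers of T and NK cells summed to 42.0 to 47.9 TPM in Mi-2 libraries, against 30.0 to 34.9 TPM in DMSO libraries, nearly all of it from CD3E, while CD3D was listed at 0 in every library. The 6 myeloid markers summed to at most 2.01 TPM in any library. The 7 markers of fibroblasts, endothelium and epithelium summed to 82.9 to 119.9 TPM in Mi-2 libraries, against 67.1 to 83.7 TPM in DMSO libraries, nearly all of it from PECAM1 and KRT18, and COL3A1 was listed at 0 throughout. The 5 markers of red cells and platelets summed to 2.25 to 19.8 TPM in Mi-2 libraries, against 0.55 to 16.2 TPM in DMSO libraries, and PPBP and PF4 were listed at 0. Mitochondrially encoded genes took 5.20 to 5.34% of the counts in Mi-2 libraries, against 4.47 to 4.98% in DMSO libraries, and the part of this in the results below was not tested.

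Nearly the whole set was lower after Mi-2, by a modest amount. Summed over the 48 genes, the levels came to 5915, 7162 and 6506 TPM in Mi-2 libraries 1, 2 and 3, against 8101, 9279.7 and 8286 TPM in DMSO libraries 1, 2 and 3. The 2 groups did not overlap in this sum. The log2 fold change (Mi-2 over DMSO, so that a negative value is a lower level with Mi-2) was below 0 for 47 of the 48 genes, with a median of -0.38, against 49.3% of all tested genes and a median of 0.005 over them. At an edgeR adjusted p under 0.05, 22 of the 48 genes fell, which is 45.8%, where 6.03% of all tested genes were called lower. None of the 48 rose, and none was higher at an unadjusted p under 0.05 or by DESeq2, where 5.02% of all tested genes were called higher by edgeR. The CPM (counts scaled to library size, with no correction for length) of all 3 Mi-2 libraries lay below those of all 3 DMSO libraries for 40 of the 48 genes, against 16.6% of all tested genes. In TPM the groups did not overlap for 38 of the 48 genes, and they were apart in both measures for 36. The share over all tested genes was not computed for TPM. The called falls ran from 1.29-fold in DKC1 to 1.697-fold in LYAR. In bulk RNA, fewer cells with high levels and less RNA per cell cannot be told apart.

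**Figure D1:**
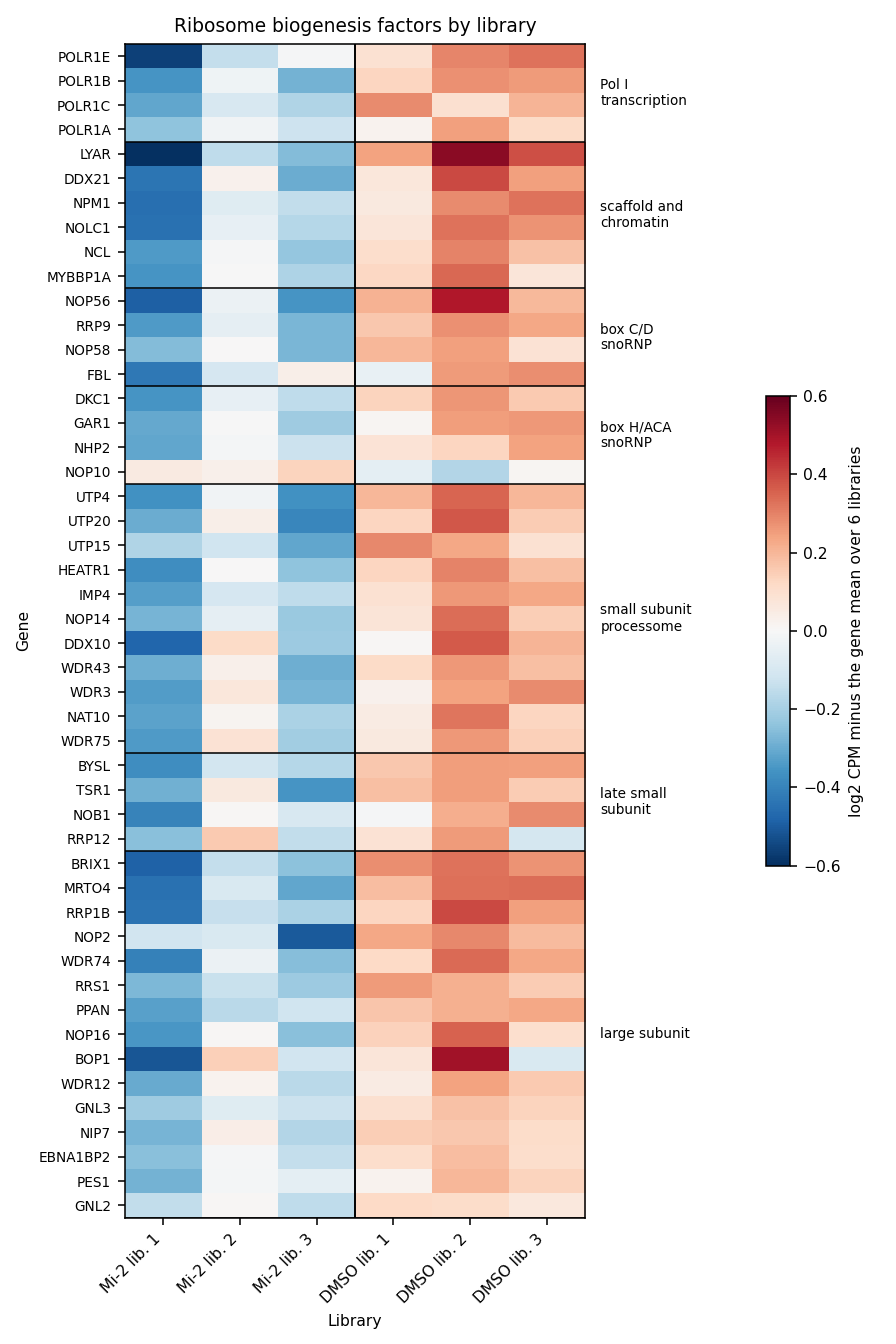
Each row is 1 of the 48 genes, grouped by role, and each column a library, with Mi-2 at the left. Colour is log2 CPM minus the gene's mean over the 6 libraries, with values beyond 0.6 in either direction drawn at the end of the scale. Mi-2 library 1 is the lowest of the 6 in 41 genes, DMSO library 2 is the highest in 34, and NOP10 is the only row with the reverse pattern.

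The number of calls depended on which libraries were compared, although the direction of the change did not. Mi-2 library 1 had the lowest CPM of the 6 libraries in 41 of the 48 genes (85.4%, against 22.5% of all tested genes). DMSO library 2 had the highest in 34 (70.8%, against 18.3% of all tested genes). With Mi-2 library 1 omitted, 3 of the 48 were called lower (1.83% of all genes tested in that fit), and with DMSO library 2 omitted 2 were (2.37%). Omitting DMSO library 3 left 6 calls (2.53%), omitting Mi-2 library 3 left 10 (5.29%) and omitting DMSO library 1 left 17 (4.45%), while the fit that omitted Mi-2 library 2 called 30 (4.49%). The median log2 fold change of the 48 stayed between -0.47 and -0.32 in these 6 fits, and 47 of the 48 values were negative in each. BRIX1 and MRTO4 were called in all 6. Some other settings moved the count as well. It was 34 with DESeq2 (8.73% of all genes with an adjusted p) and 38 with edgeR and no filter on low counts (4.90%). It was 8 (2.73%) with limma on log2(TPM + 1). With limma on log2(TPM + 1) and no TPM filter it was 0, in a fit that called no gene at all. The 8 were LYAR, BYSL, NOP2, PPAN, BRIX1, RRS1, MRTO4 and WDR74, and the other 14 edgeR calls did not pass in that fit. All 22 edgeR calls also passed with RLE scaling, with limma-voom and with a filter of 1 CPM in 3 libraries. With upper-quartile scaling 20 of them did.

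**Figure D2:**
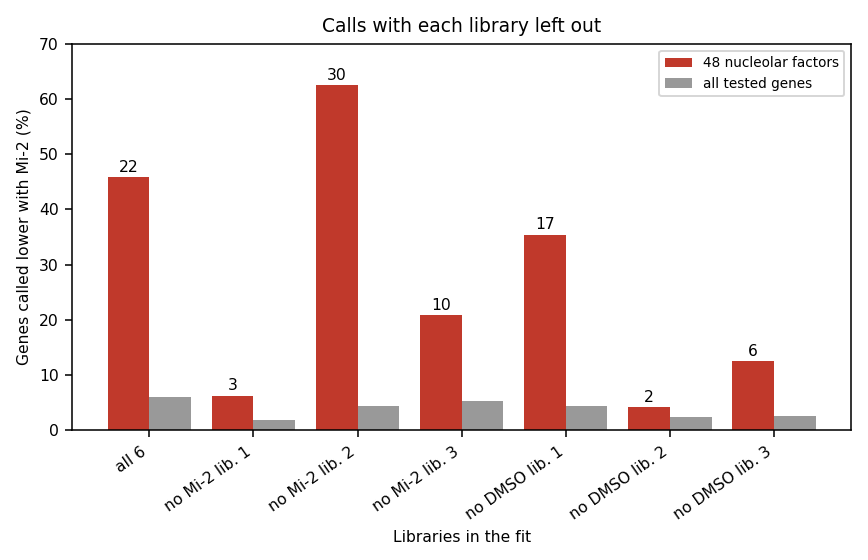
Share of genes called lower with Mi-2 (edgeR adjusted p under 0.05), in percent, for the 48 nucleolar factors and for all tested genes, with all 6 libraries and with each library left out. The number above a bar is the count among the 48, which is 22 with all libraries, 3 when Mi-2 library 1 is omitted and 2 when DMSO library 2 is.

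Levels of the 48 genes ran from among the highest in these cells to moderate ones, with NPM1 above 99.5% of tested genes. Their median level was 59.0 TPM, against 8.47 TPM for all tested genes, and even UTP20, the lowest, stood above 53.9% of tested genes. NPM1 had 1434, 1813 and 1685 TPM in Mi-2 libraries 1, 2 and 3, against 2049.96, 2429.96 and 2301 TPM in DMSO libraries 1, 2 and 3. Its level was above that of NCL, the next in order, in every library, and the pair made up 36.7% of the summed TPM of the set. NHP2 and FBL followed at means of 606 and 595 TPM over the 6 libraries, and these neighbours changed places between libraries. NOP56, NOP10, GNL3 and NOP58 lay close together, at means of 257, 247, 246 and 236 TPM. At the low end were UTP20 (10.4 TPM), HEATR1 (17.5 TPM), WDR3 (17.9 TPM) and POLR1A (18.4 TPM). Only in 10 of the 47 pairs of neighbours in the order of mean TPM was the upper gene above the lower in all 6 libraries. The order of most neighbours is therefore not resolved beyond the spread, and genes farther apart in the order were not compared in this way.

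**Figure D3:**
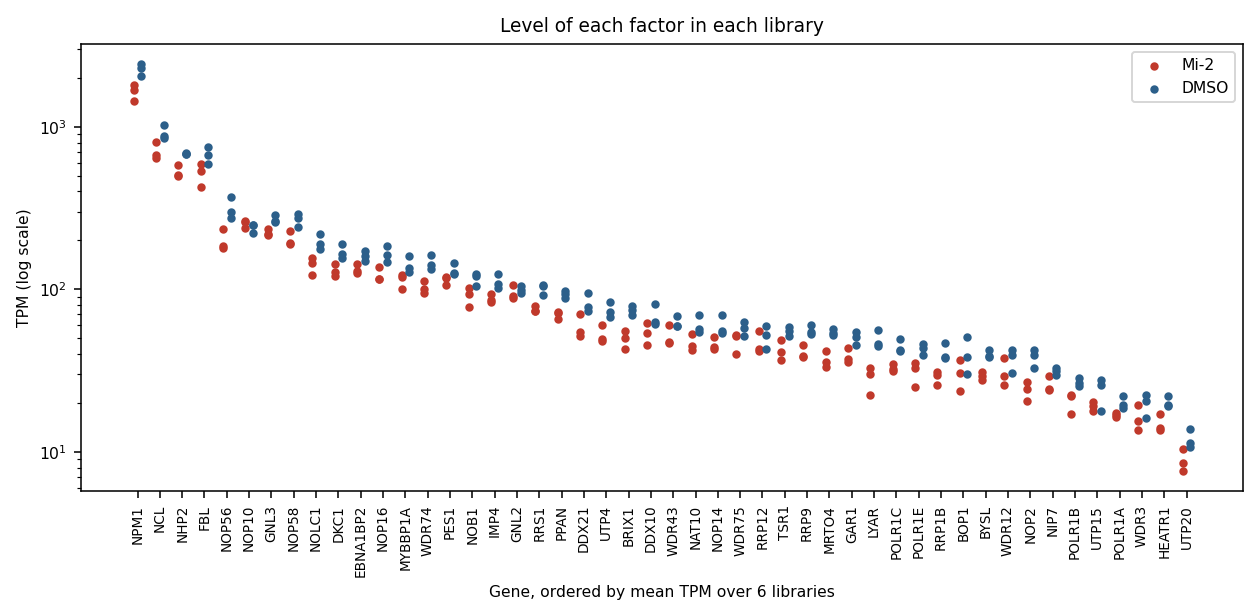
Level of each of the 48 genes in TPM (log scale), ordered by the mean over 6 libraries, with 3 Mi-2 libraries at the left and 3 DMSO libraries at the right of each gene. NPM1, at 1434 to 2429.96 TPM, stands apart from the rest, and UTP20, at 7.63 to 13.8 TPM, is the lowest.

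Many of the genes share promoter letters that were not used to choose them. RefSeq promoter windows (GRCh38.p14, 250 bases before to 50 bases from a transcription start) were found for 41 of the 48 genes, some with several starts. The E-box CACGTG, a palindrome that reads the same on both strands and is the core site of MYC with its partner MAX among other factors, was in a window of 20 of the 41 (48.8%). It was in a window of 26 of 111 other ribosome biogenesis genes (23.4%) and of 1402 of 11154 tested genes (12.6%). Counted by window, 21 of 51 windows of the set held it (41.2%), against 9.4% of 16145 windows of tested genes. Of the 23 matches in the set, 19 began within 50 bases of the start (82.6%), against 38.6% of matches in tested genes. The letters were in windows of 9 of 19 genes that fell and of 11 of 22 that were not called. The ETS-type letters CCGGAAG, on either strand, were in a window of 16 of the 41 (39.0%, against 42.3% of the other ribosome biogenesis genes and 22.0% of tested genes), and TATAAA in that of 1 (2.4%, against 8.6%). The shares of GGGCGG (75.6% of the 41, against 75.1% of tested genes) and CCAAT (43.9%, against 43.3%), also on either strand, were close to those of tested genes. Each motif was searched by itself, so matches of different motifs may overlap. These letter matches are descriptions of the windows and not measured binding.

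For 5 genes the 100 bases before a start are printed, with CACGTG in capitals. They read 5′ to 3′ on the gene's strand and end at the base before the start (RRP9 runs on to the end of its E-box). Such stretches leave out matches that begin after the start, as in GNL2 (base 4 from the start), FBL (7), MRTO4 (15), BYSL (29) and NOP2 (36). The 5 genes therefore do not show on which side of the start the E-boxes of the set mostly lie. UTP4 (chr16:69132549-69132648, plus strand), RRP9 (chr3:51941904-51942004, minus strand) and LYAR (chr4:4290022-4290121, minus strand) fell and hold an E-box there. LYAR has another listed start, whose window (chr4:4290105-4290404) has no match, and only the stretch of the start with a match is printed. NOP10 (chr15:34343137-34343236, minus strand) also holds an E-box in the printed stretch and is the only gene of the set with a positive value. BRIX1 (chr5:34915611-34915710, plus strand) fell and its window has no match.
UTP4: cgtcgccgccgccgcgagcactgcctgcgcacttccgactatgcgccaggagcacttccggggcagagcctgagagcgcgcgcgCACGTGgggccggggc
RRP9: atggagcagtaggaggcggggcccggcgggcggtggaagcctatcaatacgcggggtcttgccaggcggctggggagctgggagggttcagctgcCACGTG
LYAR: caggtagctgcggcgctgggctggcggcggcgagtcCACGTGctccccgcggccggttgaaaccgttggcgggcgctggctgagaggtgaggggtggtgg
NOP10: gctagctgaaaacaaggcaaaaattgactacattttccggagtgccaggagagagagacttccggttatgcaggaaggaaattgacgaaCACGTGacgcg
BRIX1: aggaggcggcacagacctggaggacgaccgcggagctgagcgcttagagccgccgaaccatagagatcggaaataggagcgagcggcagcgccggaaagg

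RNA polymerase I subunits all had negative values, with 2 of 4 called. POLR1C, a subunit that RNA polymerases I and III share and the highest of the 4 in mean TPM, had 26.8, 31.1 and 29.4 CPM in Mi-2 libraries 1, 2 and 3, against 40.5, 35.5 and 38.3 CPM in DMSO libraries 1, 2 and 3. The groups did not overlap, and POLR1C fell 1.31-fold (log2 fold change -0.39 ± 0.10 SE, edgeR adjusted p = 0.0345). POLR1B, the second-largest subunit, had 74.4, 93.3 and 78.1 CPM in Mi-2 libraries 1, 2 and 3, against 104, 115 and 113 CPM in DMSO libraries 1, 2 and 3. Again the groups were apart, with Mi-2 library 1 lowest, and POLR1B fell 1.35-fold (-0.44 ± 0.10, edgeR adjusted p = 0.0254). POLR1E, which encodes a subunit needed for elongation and initiation in yeast and was above POLR1C in TPM in 3 of the 6 libraries, had a log2 fold change of -0.46 ± 0.14 and did not pass (edgeR adjusted p = 0.0584), nor did POLR1A, the largest catalytic subunit (-0.26 ± 0.09, edgeR adjusted p = 0.112). The call of POLR1B ended on leaving out Mi-2 library 1 or 3 or DMSO library 2 or 3, with adjusted p of up to 0.105, and that of POLR1C held only without Mi-2 library 2 (highest adjusted p 0.141). Annotated exons of POLR1C overlap XPO5 in 6.3% and YIPF3 in 2.3% of their bases, both on the other strand. Mean counts were 3560 for XPO5 and 1611 for YIPF3, against 743.5 for POLR1C, and their log2 fold changes were -0.34 and 0.31. The sources used here do not say if reads were counted by strand, and the part of these overlaps in the call was not tested.

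All 6 genes for scaffold and multifunctional proteins of the nucleolus had negative values, and 4 were called. NPM1, which encodes the histone and ribosome chaperone nucleophosmin (chromosome 5, 171387116 to 171411137, plus strand, GENCODE 29 on GRCh38), had 1296, 1684 and 1599.8 CPM in Mi-2 libraries 1, 2 and 3, against 1846, 2156 and 2222 CPM in DMSO libraries 1, 2 and 3. Every Mi-2 library lay below every DMSO library, and NPM1 fell 1.36-fold (-0.44 ± 0.12, edgeR adjusted p = 0.0474). NCL, for the rRNA-binding protein nucleolin, had a similar value that did not pass (-0.38 ± 0.11, edgeR adjusted p = 0.0541). NOLC1, a chaperone of snoRNPs, had 315, 415 and 382 CPM in Mi-2 libraries 1, 2 and 3, against 452, 538 and 519 CPM in DMSO libraries 1, 2 and 3. The groups did not overlap, and NOLC1 fell 1.36-fold (-0.44 ± 0.12, edgeR adjusted p = 0.0422). DDX21, an RNA helicase that links polymerase I transcription to processing, had 189, 259.98 and 208 CPM in Mi-2 libraries 1, 2 and 3, against 268, 336 and 304 CPM in DMSO libraries 1, 2 and 3. Mi-2 library 2 came within 10 CPM of DMSO library 1, and DDX21 fell 1.38-fold (-0.47 ± 0.13, edgeR adjusted p = 0.0493). LYAR, a zinc-finger protein of the nucleolus linked to rRNA synthesis and processing (chromosome 4, 4267701 to 4290169, minus strand), had 24.3, 37.1 and 34.4 CPM in Mi-2 libraries 1, 2 and 3, against 48.7, 59.99 and 53.9 CPM in DMSO libraries 1, 2 and 3. The groups were well apart, and LYAR had the largest fall of the 48, 1.697-fold (-0.76 ± 0.15, edgeR adjusted p = 0.014). MYBBP1A, a nucleolar protein that binds MYB, did not pass (-0.36 ± 0.11, edgeR adjusted p = 0.0724).

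Every call of this group was lost in at least 1 of the 6 fits that left out a library. NOLC1 and DDX21 lost their calls on leaving out Mi-2 library 1 or 3 or DMSO library 2 or 3, where adjusted p reached 0.151 and 0.175. NPM1 was called only without DMSO library 1 among the 6 fits (up to 0.152), and upper-quartile scaling ended the calls of NPM1 and DDX21. LYAR lost its call only without DMSO library 2 (0.0636). GENCODE lists 45 pseudogenes named for NPM1, whose counts summed to 0.27% of those of the gene, and the sources used here do not say how reads matching several copies were assigned.

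Of the 4 box C/D snoRNP genes, whose complexes carry out ribose methylation of rRNA, 2 fell. NOP56, a core protein of the particle, had 208, 285 and 228 CPM in Mi-2 libraries 1, 2 and 3, against 337, 407 and 335 CPM in DMSO libraries 1, 2 and 3. All Mi-2 libraries were below all DMSO libraries, and NOP56 fell 1.495-fold (-0.58 ± 0.13, edgeR adjusted p = 0.0226). NOP58, its partner in the core, had -0.35 ± 0.10 and just missed the threshold (edgeR adjusted p = 0.051). FBL, which encodes the methyltransferase fibrillarin and is the most abundant of the 4 per length, had 212, 266 and 292 CPM in Mi-2 libraries 1, 2 and 3, against 276, 340.3 and 346 CPM in DMSO libraries 1, 2 and 3. Mi-2 library 3 lay above DMSO library 1, so the groups overlapped in CPM, though not in TPM, and FBL did not pass (-0.32 ± 0.13, edgeR adjusted p = 0.15). RRP9, a protein specific to the U3 particle that takes part in cleaving the precursor, had 41.7, 50.96 and 43.7 CPM in Mi-2 libraries 1, 2 and 3, against 59.2, 63.9 and 62.1 CPM in DMSO libraries 1, 2 and 3. Its groups did not overlap, and RRP9 fell 1.36-fold (-0.44 ± 0.09, edgeR adjusted p = 0.0193). The call of NOP56 was lost without Mi-2 library 1 or 3 or DMSO library 2 (up to 0.0905), and that of RRP9 without Mi-2 library 1 or DMSO library 2 or 3 (up to 0.0867).

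The 4 box H/ACA proteins, which form the pseudouridine-making particles and are also part of telomerase, gave 1 call and the only positive value of the set. DKC1, the pseudouridine synthase dyskerin, had 207, 256 and 238 CPM in Mi-2 libraries 1, 2 and 3, against 289.9, 318 and 295 CPM in DMSO libraries 1, 2 and 3. The groups were apart, and DKC1 fell 1.29-fold (-0.36 ± 0.10, edgeR adjusted p = 0.0423). NHP2, the most abundant of the 4 per length, had 141, 174 and 160.4 CPM in Mi-2 libraries 1, 2 and 3, against 186, 192 and 208 CPM in DMSO libraries 1, 2 and 3. Its groups did not overlap either, but NHP2 did not pass (-0.30 ± 0.10, edgeR adjusted p = 0.0798), and GAR1 did not (-0.35 ± 0.12, edgeR adjusted p = 0.0911). NOP10, the smallest protein of the particle, was named after its values were seen, and had 49.3, 48.4 and 52.1 CPM in Mi-2 libraries 1, 2 and 3, against 45.6, 41.99 and 47.9 CPM in DMSO libraries 1, 2 and 3. Here the Mi-2 libraries lay above the DMSO libraries, and the value was positive without passing (0.15 ± 0.09, edgeR adjusted p = 0.309). In TPM the NOP10 groups overlapped, at 239 to 264 TPM in Mi-2 libraries and 221 to 249 TPM in DMSO libraries. Its share of the summed TPM of the 4 genes was 28.8, 23.7 and 28.0% in Mi-2 libraries 1, 2 and 3, against 21.9, 19.3 and 21.6% in DMSO libraries 1, 2 and 3. DKC1 held its call only without Mi-2 library 2 (highest adjusted p 0.153), and NHP2 exons overlap RMND5B on the other strand in 27.4% of their bases.

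All 11 genes of the small subunit processome, the assembly that first folds and cleaves the small subunit precursor, had negative values, between -0.49 and -0.30, and 5 were called. UTP4 had 79.1, 100.3 and 79.1 CPM in Mi-2 libraries 1, 2 and 3, against 117, 129.7 and 117 CPM in DMSO libraries 1, 2 and 3. The groups did not overlap, and UTP4, which belongs to the sub-complex that first joins the precursor, fell 1.404-fold (-0.49 ± 0.11, edgeR adjusted p = 0.0218). UTP15, of the same sub-complex, had 39.2, 40.9 and 35.7 CPM in Mi-2 libraries 1, 2 and 3, against 54.1, 52.2 and 47.3 CPM in DMSO libraries 1, 2 and 3. The groups were apart in CPM, with a fall of 1.33-fold (-0.41 ± 0.09, edgeR adjusted p = 0.0237), but overlapped in TPM, where DMSO library 3 (17.9 TPM) lay within the Mi-2 range of 17.8 to 20.2 TPM. HEATR1, another member of it, had 93.7, 122 and 103 CPM in Mi-2 libraries 1, 2 and 3, against 133, 149 and 138 CPM in DMSO libraries 1, 2 and 3. It fell 1.32-fold with no overlap (-0.40 ± 0.11, edgeR adjusted p = 0.042). NOP14, which binds the U3-containing assembly, had 118, 138 and 123 CPM in Mi-2 libraries 1, 2 and 3, against 151, 181 and 159 CPM in DMSO libraries 1, 2 and 3. It fell 1.296-fold, again with no overlap (-0.37 ± 0.10, edgeR adjusted p = 0.0406). IMP4, a U3 partner and the most abundant of the 11 per length, had 74.4, 87.2 and 84.1 CPM in Mi-2 libraries 1, 2 and 3, against 99.7, 112 and 109.97 CPM in DMSO libraries 1, 2 and 3. It fell 1.31-fold with the groups apart (-0.39 ± 0.09, edgeR adjusted p = 0.026).

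The other 6 processome genes did not pass. They were UTP20 (edgeR adjusted p = 0.0519), WDR43 (0.0541), NAT10, which acetylates rRNA (0.0865), WDR3 (0.0884), WDR75 (0.127) and the helicase DDX10 (0.139), with log2 fold changes from -0.43 to -0.30. The groups overlapped in CPM for WDR75, WDR3 and DDX10, and in TPM for those genes and WDR43. The 5 calls all ended on leaving out Mi-2 library 1 or DMSO library 2, with adjusted p reaching 0.156, and those of UTP4, UTP15, HEATR1 and NOP14 also without Mi-2 library 3. Leaving out DMSO library 3 ended those of UTP4, HEATR1, NOP14 and IMP4, and leaving out DMSO library 1 those of UTP15 and HEATR1. Exons of HEATR1 overlap LGALS8 in 23.2% of their bases and those of NOP14 overlap NOP14-AS1 in 17.1%, both on the other strand.

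Of the 4 factors of late small subunit maturation, only BYSL was called. BYSL, a factor of the small subunit precursor on its way from the nucleolus, had 32.2, 38.7 and 37.03 CPM in Mi-2 libraries 1, 2 and 3, against 46.6, 49.6 and 49.5 CPM in DMSO libraries 1, 2 and 3. The groups did not overlap, and BYSL fell 1.35-fold (-0.43 ± 0.09, edgeR adjusted p = 0.0204), a call that ended on leaving out Mi-2 library 1 or DMSO library 2 or 3, where adjusted p reached 0.0851. NOB1, the nuclease that makes the last cut of the small subunit rRNA and the most abundant of the 4 per length, had 94.1, 125 and 116 CPM in Mi-2 libraries 1, 2 and 3, against 124, 145 and 151 CPM in DMSO libraries 1, 2 and 3. Mi-2 library 2 lay above DMSO library 1, so the groups overlapped in CPM, though not in TPM, and NOB1 did not pass (-0.32 ± 0.12, edgeR adjusted p = 0.118). TSR1, a late assembly factor, did not pass either (-0.38 ± 0.11, edgeR adjusted p = 0.0584). RRP12, which takes part in export of the subunits in yeast, was nearest to 0 of the 47 negative values (-0.16 ± 0.13, edgeR adjusted p = 0.47), and its groups overlapped.

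Large subunit factors formed the biggest group, with 7 of 15 called and all 15 negative. BRIX1, an early factor of the large subunit (chromosome 5, 34915376 to 34925996, plus strand), had 48.8, 62.04 and 57.6 CPM in Mi-2 libraries 1, 2 and 3, against 82.98, 85.8 and 82.5 CPM in DMSO libraries 1, 2 and 3. The groups were more than 20 CPM apart, and BRIX1 fell 1.49-fold (-0.58 ± 0.10, edgeR adjusted p = 0.00853), the lowest p of the 48. MRTO4, a relative of the ribosomal stalk protein P0 that holds its place during assembly (chromosome 1, 19251539 to 19260128, plus strand), had 48.05, 61.6 and 52.8 CPM in Mi-2 libraries 1, 2 and 3, against 74.5, 82.4 and 82.8 CPM in DMSO libraries 1, 2 and 3. Its groups did not overlap, and MRTO4 fell 1.48-fold (-0.56 ± 0.10, edgeR adjusted p = 0.0112). RRP1B, a nucleolar protein of the precursor particles, had 106, 131 and 127 CPM in Mi-2 libraries 1, 2 and 3, against 158, 189.9 and 171 CPM in DMSO libraries 1, 2 and 3. It fell 1.43-fold with the groups apart (-0.51 ± 0.11, edgeR adjusted p = 0.0173). RRS1, which in yeast helps to build in the small rRNA of the large subunit, had 91.6, 101 and 94.9 CPM in Mi-2 libraries 1, 2 and 3, against 132, 128 and 123 CPM in DMSO libraries 1, 2 and 3. It fell 1.33-fold and had the smallest standard error of the set (-0.41 ± 0.08, edgeR adjusted p = 0.013).

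NOP2, a cytosine methyltransferase of the large subunit rRNA, had 34.1, 34.6 and 26.04 CPM in Mi-2 libraries 1, 2 and 3, against 43.3, 45.0003 and 42.0 CPM in DMSO libraries 1, 2 and 3. The groups did not overlap, with Mi-2 library 3 rather than 1 the lowest, and NOP2 fell 1.38-fold (-0.46 ± 0.12, edgeR adjusted p = 0.0354). PPAN, an early large subunit factor, had 96.0, 108 and 111 CPM in Mi-2 libraries 1, 2 and 3, against 135, 139.7 and 141 CPM in DMSO libraries 1, 2 and 3. It fell 1.32-fold with the groups apart (-0.40 ± 0.08, edgeR adjusted p = 0.0176). WDR74, another assembly factor, had 58.03, 74.9 and 64.4 CPM in Mi-2 libraries 1, 2 and 3, against 83.3, 97.3 and 90.3 CPM in DMSO libraries 1, 2 and 3. It fell 1.37-fold, again with no overlap (-0.46 ± 0.11, edgeR adjusted p = 0.0267). GNL3, the GTP-binding protein nucleostemin and the most abundant of the 15 per length, had 228, 252 and 242 CPM in Mi-2 libraries 1, 2 and 3, against 283, 299 and 291 CPM in DMSO libraries 1, 2 and 3. Its groups did not overlap, but it did not pass (-0.27 ± 0.08, edgeR adjusted p = 0.0596). PES1, BOP1 and WDR12, which act as a single complex, had -0.23 ± 0.10, -0.32 ± 0.18 and -0.29 ± 0.10 and none passed (edgeR adjusted p = 0.155, 0.294 and 0.0932). BOP1 had the widest error of the 48, at 41.4 to 65.4 CPM in Mi-2 libraries and 55.5 to 83.7 CPM in DMSO libraries. The remaining 4, NOP16 (edgeR adjusted p = 0.0507), EBNA1BP2 (0.0842), NIP7 (0.108) and the GTPase GNL2 (0.159), did not pass, with log2 fold changes from -0.39 to -0.19. For WDR12 and GNL2 the groups were apart in CPM but overlapped in TPM.

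BRIX1 and MRTO4 stayed under the threshold with any library left out (adjusted p up to 0.0393 and 0.0496). RRS1, PPAN, RRP1B, WDR74 and NOP2 were all lost without Mi-2 library 1 or DMSO library 2 (up to 0.124), the last 4 also without DMSO library 3, WDR74 and NOP2 also without Mi-2 library 3, and NOP2 also without DMSO library 1. PPAN and NOP2 share exon bases with other annotated genes on the same strand, so their counts are uncertain to that extent. PPAN-P2RY11 holds 56.0% of the exon bases of PPAN, and AC006064.6 holds 54.4% of those of NOP2. Their mean counts were 288 and 471.0, against 2701 for PPAN and 829 for NOP2, and their own log2 fold changes were -0.40 and -0.45. Exons of BRIX1 overlap RAD1 on the other strand in 9.6% of their bases (RAD1 log2 fold change -0.43), while those of MRTO4 share 0.5% with EMC1.

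**Figure D4:**
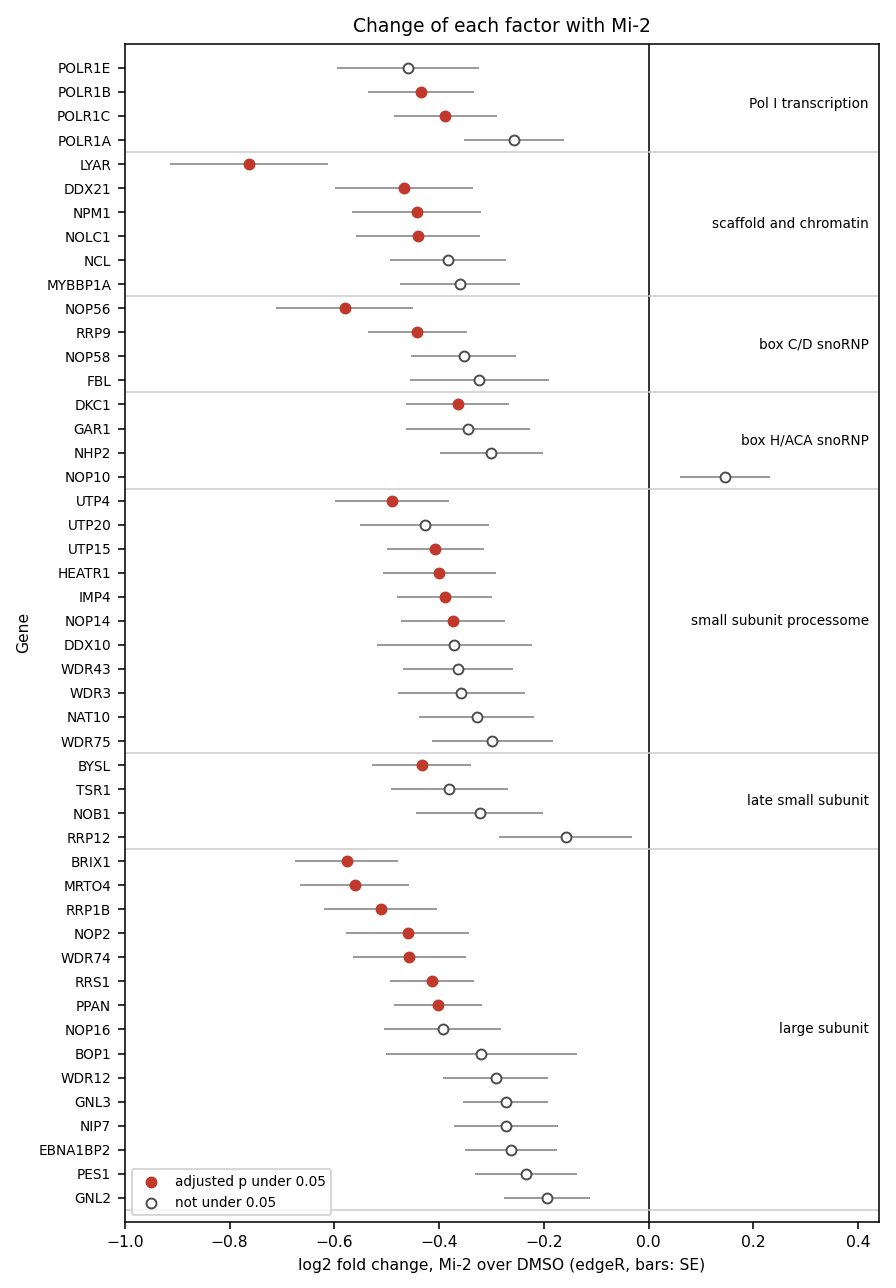
Log2 fold change of each of the 48 genes, Mi-2 over DMSO, with bars of 1 SE from edgeR, grouped by role. Filled points are the 22 genes with an adjusted p under 0.05. All points but NOP10 lie left of 0, and LYAR, NOP56, BRIX1 and MRTO4 lie farthest left.

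The median log2 fold change was -0.41 for RNA polymerase I, -0.44 for the scaffold group, -0.40 for box C/D, -0.32 for box H/ACA, -0.37 for the processome, -0.35 for late small subunit factors and -0.39 for large subunit factors, each over 4 to 15 genes of the same 6 libraries. Differences between roles were not tested.

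Other genes of the pathway had mostly negative values too. Of 128 further ribosome biogenesis genes on a list of symbols, all of them tested, 33 fell (25.8%, against 6.03% of all tested genes). Negative values were found for 121 (94.5%, against 49.3% of all tested genes), with a median log2 fold change of -0.26, against 0.005 over all tested genes. None rose in the main edgeR fit, while DESeq2 and edgeR with upper-quartile scaling each called 1 higher. ZNF622, a large subunit factor named after its values were seen, was the 1 gene higher at an unadjusted p under 0.05, with 102, 91.4 and 90.03 CPM in Mi-2 libraries 1, 2 and 3, against 83.1, 73.2 and 74.9 CPM in DMSO libraries 1, 2 and 3. Its groups did not overlap, but it did not pass (0.30 ± 0.09, edgeR adjusted p = 0.0625). By role, 4 of 12 RNA polymerase I genes, 2 of 11 snoRNP assembly genes, 9 of 43 small subunit genes, 15 of 48 large subunit genes and 3 of 14 exosome genes fell. The lowest p was that of POLR1G, a further polymerase I subunit, with 28.9, 33.9 and 32.8 CPM in Mi-2 libraries 1, 2 and 3, against 56.1, 61.5 and 57.7 CPM in DMSO libraries 1, 2 and 3. The groups were far apart, and POLR1G fell 1.83-fold (-0.87 ± 0.09, edgeR adjusted p = 0.00203), more than any of the 48. TCOF1, for the treacle protein that supports polymerase I, had 90.2, 117 and 127 CPM in Mi-2 libraries 1, 2 and 3, against 177, 218 and 228 CPM in DMSO libraries 1, 2 and 3. It fell 1.86-fold (-0.90 ± 0.14, edgeR adjusted p = 0.00613). UTP18, of the processome, had 45.8, 44.4 and 45.6 CPM in Mi-2 libraries 1, 2 and 3, against 68.8, 75.5 and 63.1 CPM in DMSO libraries 1, 2 and 3. It fell 1.53-fold (-0.61 ± 0.09, edgeR adjusted p = 0.00495), and the calls of these 3 genes held in each of the 6 fits with a library left out. In place of 33, the count was 5 on leaving out Mi-2 library 1 (1.83% of all genes called lower in that fit), 40 for Mi-2 library 2 (4.49%), 18 for Mi-2 library 3 (5.29%), 24 for DMSO library 1 (4.45%), 9 for DMSO library 2 (2.37%) and 12 for DMSO library 3 (2.53%). It was 41 with DESeq2 (8.73%), 47 with no filter on low counts (4.90%) and 7 with limma on log2(TPM + 1) (2.73%).

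**Figure D5:**
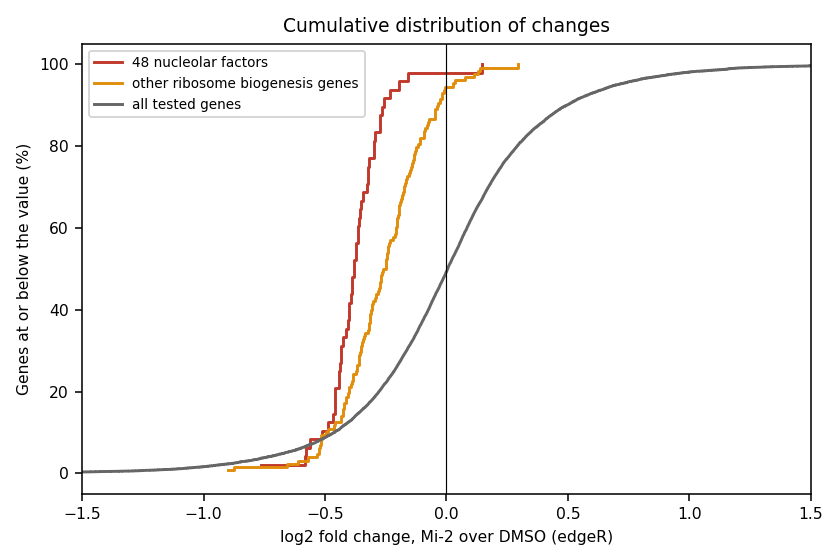
Cumulative distribution of log2 fold changes (edgeR, Mi-2 over DMSO) for the 48 nucleolar factors, the other ribosome biogenesis genes and all 16082 tested genes, with the share of genes at or below each value in percent. The ends of the curve for all tested genes lie outside the drawn range. The 3 curves pass the middle of the scale at -0.38, -0.26 and 0.005.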

How the data were processed

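The authors' deposited tables give, for 62703 Ensembl gene IDs and 6 libraries, estimated counts that are not scaled between libraries and TPM values, which have the same sum in every library up to rounding. Tools named, with no role, in the submitters' processing notes were RSEM (1.3.3), StringTie (2.1.0), HISAT2 (2.1.0) and fastp (0.19.5), and the build was GRCh38.p13. The sources used here give neither strandedness nor RNA selection. Counts per gene were matched to samples by column name, to symbols by Ensembl ID (62625 named) and to GENCODE 29 for coordinates. Groups came from the treatment labels.

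Estimated counts were rounded to whole numbers, filtered with filterByExpr (minimum count 10, minimum total 15), scaled by TMM and tested in R 4.3.3 by edgeR 4.0.16 (glmQLFTest), Mi-2 against DMSO with no covariate. The p-values were adjusted by Benjamini-Hochberg over all 16082 genes, with a threshold of 0.05. A standard error is the log2 fold change divided by the root of F. The biological coefficient of variation, as edgeR terms it, was 14.2%. Within each group no library copied another, since chi-square values between libraries were 16.6 to 23.4 per degree of freedom. Alternatives were 2 other scalings, 2 other filters, DESeq2 1.42.0, limma-voom (limma 3.58.1), 3 limma fits of log2(TPM + pseudocount), 6 fits that leave out 1 library each, and a block for the library number. Library values were given for called genes and the most abundant gene of each role, and among the other pathway genes for the 3 called lower with the lowest p, none being called higher, and for ZNF622. Genes, lists, markers, motifs and roles were chosen with earlier results of these data known.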

Additional observations from a re-analysis of the deposited data

How the results depend on the processing

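The direction of change was the same for each of the 48 nucleolar factors in all 16 alternatives, while the number of calls was not. Members called lower were 34 with DESeq2, 38 with no filter on low counts, 8 with log2(TPM + 1), 9 with log2(TPM + 0.1) and 0 with log2(TPM + 1) and no TPM filter, where limma called no gene at all but 38 of the 48 were lower at an unadjusted p under 0.05. Other ribosome biogenesis genes called lower were 7, 7 and 0 in the 3 TPM fits, and 1 was called higher with upper-quartile scaling and with DESeq2. The count of all genes called lower was 381 with log2(TPM + 1) and 398 with log2(TPM + 0.1), each of 13981 genes tested. It was 0 of 31463 with no TPM filter and 1541 of 31459 with no filter on low counts. In the same order, all genes called higher were 229, 249, 0 and 1221. With a library left out, the counts called lower ran from 2 to 30 members, 5 to 40 other pathway genes and 302 to 866 of all genes. Those called higher ran from 216 to 715 of all genes and were 0 for members and for other pathway genes. The cause of these shifts was not tested.

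With the library number as a replicate block, 46 members and 69 other ribosome biogenesis genes were called lower and 1 other ribosome biogenesis gene higher, all genes called lower were 2035 and all genes called higher 1791. Deviations from the group means of same-numbered libraries correlated at 0.478, 0.0753 and 0.304, and each library correlated best with its own number, a hint from the data rather than the design, since the labels name no pairs. Median changes of the 48 moved by less than the spread between libraries (0.125 on the log2 scale) in all 16 alternatives. All 48 genes passed the count filter, so depth kept none of them out of the test.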

Other observations

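The snoRNAs that GENCODE 29 places inside the nucleolar factor genes gave almost no signal. Of 28 entries on the same strand for snoRNAs or the related scaRNAs (a scaRNA in POLR1C), in 9 host genes such as NOP56, GNL3 and NCL, 25 were listed at 0 in every library, and no count exceeded 1. The guide RNAs themselves were hardly counted in these libraries.

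Some of the 48 genes lie near each other. UTP4, NIP7 and NOB1 stand in that order on chromosome 16, with gaps of 106866 and 398756 bases. NOP58 and WDR12 lie 571116 bases apart on chromosome 2, and RRP9 and GNL3 lie 739215 bases apart on chromosome 3. Their log2 fold changes were -0.49, -0.27 and -0.32 on chromosome 16, -0.35 and -0.29 on chromosome 2, and -0.44 and -0.27 on chromosome 3.

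Estimated counts and TPM values gave nearly the same change for most of the 48, and NOP2 differed most. The log2 ratio of its mean TPM was -0.67, against a log2 fold change of -0.46 from counts. Its count per TPM, relative to the mean of the DMSO libraries, was 1.126, 1.234 and 1.102 in Mi-2 libraries 1, 2 and 3, against 0.904, 1.040 and 1.063 in DMSO libraries 1, 2 and 3, a log2 difference of 0.205. NOP2 was the only 1 of the 48 with a log2 difference over 0.2 in either direction, a size reached by 8.0% of 12703 genes with enough counts. Which transcripts of NOP2 the counts came from was not tested.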
